A study of Danio rerio with 6 samples.

Results

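The mitochondrially encoded subunits of respiratory complexes III, IV and V were followed in thrombocytes sorted from zebrafish larvae. They comprise 6 of the 32520 genes in the count table and were taken by their Ensembl identifiers. For complex IV, cytochrome c oxidase, they are mt-co1 (ENSDARG00000063905), mt-co2 (ENSDARG00000063908) and mt-co3 (ENSDARG00000063912). For complex V, the ATP synthase, they are mt-atp8 (ENSDARG00000063910) and mt-atp6 (ENSDARG00000063911), and for complex III the member is mt-cyb (ENSDARG00000063924), cytochrome b. The rule that defines them is their genome and complex, not a measured value.

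The series compared thrombocytes that overexpressed the microRNA miR-150 with thrombocytes that did not, and its title concerns how variably platelets respond when P2Y12, an ADP receptor, is blocked. The miR-150 group (n = 3 libraries) came from larvae carrying the (-6.0itga2b:miR-150-tagRFP) transgene together with the (-6.0itga2b:EGFP) reporter. The control group (n = 3 libraries) came from larvae carrying (-6.0itga2b:tagRFP), without the microRNA, together with the same EGFP reporter. All larvae were 5 days old, were kept in 1-phenyl 2-thiourea to block pigment, and carried the EGFP reporter, and cells positive for both colours were collected. The itga2b promoter, active in the thrombocyte lineage, drove the reporters and the microRNA, so that sorted cells of any type with both colours entered a library. Thrombocytes are the nucleated blood cells that take the place of platelets in fish. The titles number the libraries as biological replicates, while the labels do not say how many larvae or clutches went into each.

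The respiratory chain of the inner mitochondrial membrane passes electrons through complexes I, III and IV and pumps protons, and the ATP synthase uses the proton gradient to make ATP. Most of its subunits are encoded in the nucleus, and the mitochondrial genome supplies 13 core subunits, of which 7 belong to complex I and 6 are the genes described here. Their mRNAs are cut from long transcripts of the mitochondrial chromosome, mostly at the transfer RNA genes that lie between them. In the RefSeq annotation of the GRCz12tu assembly, mt-co1, mt-co2 and mt-cyb are flanked by transfer RNA genes on both sides. mt-atp8, mt-atp6 and mt-co3 follow each other directly with no transfer RNA between them, and in vertebrates mt-atp8 and mt-atp6 are carried on a shared mRNA with overlapping reading frames. Reads that fell on such shared stretches, or that match nuclear copies of mitochondrial DNA, could have been dropped or split by the counting, and this was not checked.

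Library totals ran from 16616697 to 22150519 counts in the miR-150 group and from 12972258 to 20559611 counts in the control group. miR-150 replicate 3 stood apart: the 12 thrombocyte marker genes tested had a median log2 deviation of -1.34 there from their mean over all libraries, against 0.21 and 0.05 in miR-150 replicates 2 and 1 and -0.02 to 0.64 in controls. itga2b, the gene whose promoter drove the reporters, had 1297 CPM (library-size-scaled counts with TMM normalisation, which uses a trimmed mean) in miR-150 replicate 3, against 4715 and 4747 CPM in the other miR-150 libraries and 3403 to 6199 CPM in controls. A set of 116 genes, 39 of them named as crystallins of the eye lens, exceeded every other library by 8-fold or more in both miR-150 replicate 2 and miR-150 replicate 3. That set took 18.3% and 27.0% of counts in miR-150 replicates 2 and 3, against 0.317% in miR-150 replicate 1 and 0.0624% to 0.268% in controls. The members, the respiratory chain and other mitochondrial gene lists, and the thrombocyte markers are given with and without miR-150 replicate 3.

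The 6 mRNAs together took 2.12%, 0.876% and 3.48% of counts in miR-150 replicates 1, 2 and 3, and 1.31%, 1.61% and 1.80% of counts in control replicates 1, 2 and 3. The highest and the lowest library were both in the miR-150 group, so the controls lay inside the range of the miR-150 libraries. The means were 2.16% ± 1.303 in miR-150 libraries and 1.57% ± 0.2496 in controls (SD, n = 3 each). The difference, 0.588 percentage points, was smaller than the spread between miR-150 replicates (exact permutation test, two-sided, p = 0.6, where the smallest p that 3 against 3 allows is 0.1). Without miR-150 replicate 3 the difference was -0.0731 percentage points. Exact Clopper-Pearson intervals (95%, counting error only) ran from 0.872% to 0.880% for the lowest library and from 3.47% to 3.49% for the highest. In bulk libraries, fewer cells of a type and less RNA per cell cannot be told apart.

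**Figure D1:**
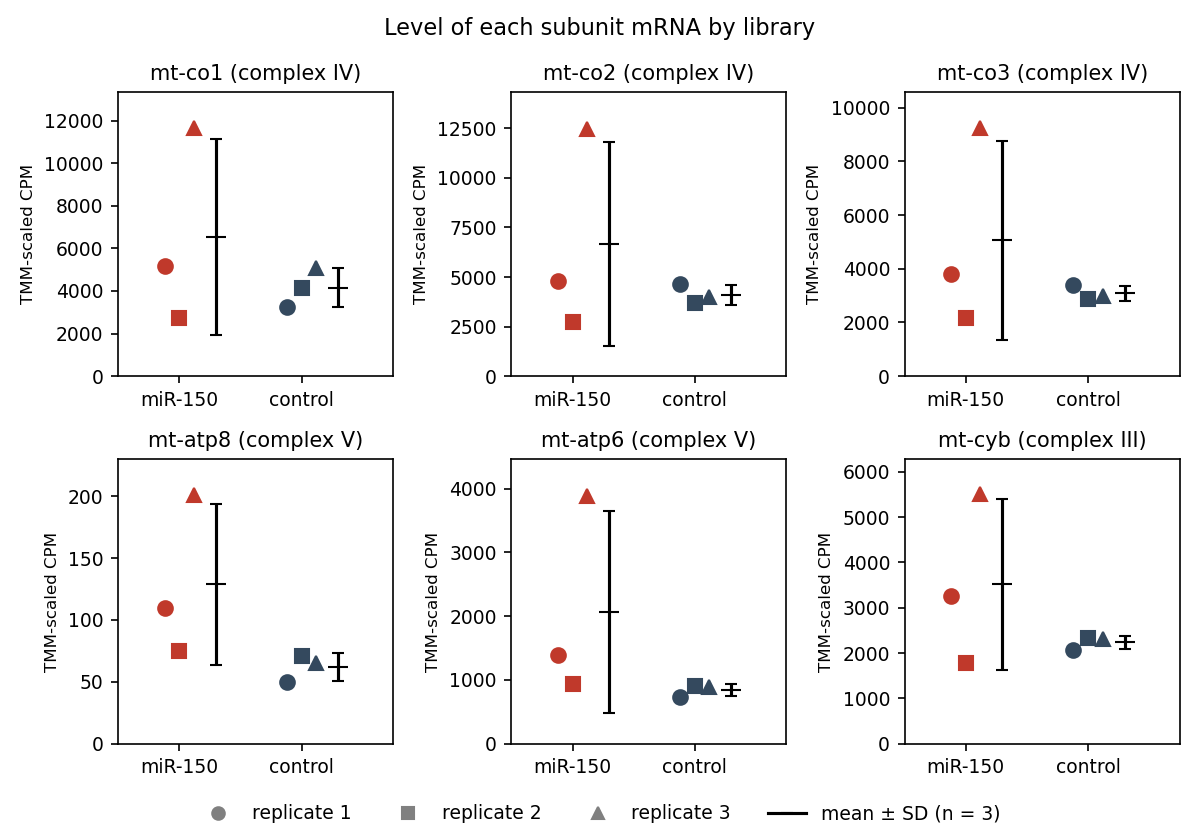
TMM-scaled CPM (linear axis from 0) of the 6 mRNAs, with a point for each library, a symbol for each replicate number, and the mean and SD (n = 3) beside each group. miR-150 replicate 3 is the highest library for all 6 mRNAs, and miR-150 replicate 2 is the lowest for mt-co1, mt-co2, mt-co3 and mt-cyb.

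Among the catalytic subunits of complex IV, mt-co1, which holds the haem and copper centre where oxygen is reduced, had 5195, 2751 and 11645 CPM in miR-150 replicates 1, 2 and 3, against 3242, 4153 and 5080.5 CPM in control replicates 1, 2 and 3. The groups overlapped, with miR-150 replicate 3 far above any other library and miR-150 replicate 2 below all controls. The log2 fold change of mt-co1 was 0.65 ± 0.72 (SE). mt-co2, the subunit that takes electrons from cytochrome c, had 4793, 2718 and 12480.3 CPM in miR-150 replicates 1, 2 and 3, against 4647, 3666 and 3995 CPM in control replicates 1, 2 and 3. Its log2 fold change was 0.70 ± 0.73 (SE), and again a miR-150 library was both the highest and the lowest. mt-co3, the remaining core subunit, had 3819, 2147 and 9225 CPM in miR-150 replicates 1, 2 and 3, against 3398, 2876 and 2984 CPM in control replicates 1, 2 and 3. The log2 fold change of mt-co3 was 0.71 ± 0.69 (SE), with overlapping groups.

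The complex V mRNAs had the largest fold changes of the 6. mt-atp6, the membrane subunit that forms the proton path beside the rotor, had 1388, 931 and 3883 CPM in miR-150 replicates 1, 2 and 3, against 739, 897 and 885 CPM in control replicates 1, 2 and 3. All 3 miR-150 libraries were above all 3 controls, although miR-150 replicate 2 exceeded control replicate 2 by little. The log2 fold change of mt-atp6 was 1.299 ± 0.64 (SE). For mt-atp8, a small membrane subunit of the same part of the enzyme, the raw counts were 2178, 1402 and 2711 in miR-150 replicates 1, 2 and 3, against 940, 1058 and 1331 in control replicates 1, 2 and 3. After scaling these were 109.9, 75.1 and 201 CPM in miR-150 libraries, against 49.5, 71.1 and 65.3 CPM in controls, again without overlap. The log2 fold change of mt-atp8 was 1.05 ± 0.45 (SE).

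mt-cyb, the haem-bearing subunit of complex III that oxidises ubiquinol, had 3265, 1772 and 5509 CPM in miR-150 replicates 1, 2 and 3, against 2068, 2326 and 2315 CPM in control replicates 1, 2 and 3. The control values lay close together and the miR-150 values on both sides of them. The log2 fold change of mt-cyb was 0.65 ± 0.59 (SE).

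In the edgeR quasi-likelihood test over 15722 genes, 0 of the 6 members had an adjusted p-value below 0.05, as was the case for 0% of all genes tested. Adjusted p-values ran from 0.918 for mt-atp8 to 0.988 for mt-co1, mt-co2, mt-co3 and mt-cyb (edgeR, Benjamini-Hochberg over all genes tested). Without adjustment, edgeR passed 1 member at a threshold of 0.05, mt-atp8, which was higher in miR-150 libraries, against 5.44% of all genes in either direction and 4.61% in that direction. The DESeq2 Wald test also called 0 members, against 1.63% of all genes. Without adjustment it passed 1 member, mt-atp6, which was higher in miR-150 libraries (DESeq2 adjusted p = 0.557). Of all 15722 genes it passed 1258, of which 999 were higher. limma voom with sample quality weights called 0 members and passed 0 without adjustment, against 858 of all genes passed. It gave a member median of 0.13, with mt-co1 at -0.05. The median log2 fold change of the members was 0.71 and all 6 were positive, against a median of 0.04 and 51.8% positive over all genes tested. Scaling by library totals alone shifted the median of all genes by -0.20, and the member median was then 0.60 above it, against 0.66 above it under TMM. The 2 members whose groups did not overlap, mt-atp6 and mt-atp8, stood against 7.64% of all genes without overlap and higher in miR-150 libraries, and 13.6% in either direction. Under DESeq2 size factors, upper-quartile scaling or library totals that number was 0. mt-atp6 and mt-atp8 share an mRNA in vertebrates, and their log2 CPM correlated at r = 0.98 over the libraries. They are therefore not 2 independent genes to set against those shares.

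The fold changes of mt-co1, mt-co2 and mt-co3 rested on miR-150 replicate 3, and those of mt-cyb, mt-atp6 and mt-atp8 were smaller when it was left out. Without it the log2 fold changes of mt-co1, mt-co2 and mt-co3 were -0.06, -0.12 and -0.04, that of mt-cyb was 0.18, and those of mt-atp6 and mt-atp8 were 0.47 and 0.59. mt-atp6 and mt-atp8, not independent as stated above, were then again the 2 members without overlap, against 11.5% of all genes in that direction. Without miR-150 replicate 2, the lowest library for 4 of the 6, all 6 members were higher in every remaining miR-150 library than in any control, against 13.5% of all genes, and the log2 fold changes ran from 0.97 to 1.64. This was not particular to the members. In the same fit all 7 mitochondrially encoded complex I genes were also without overlap and higher, with a median log2 fold change of 1.37.

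**Figure D2:**
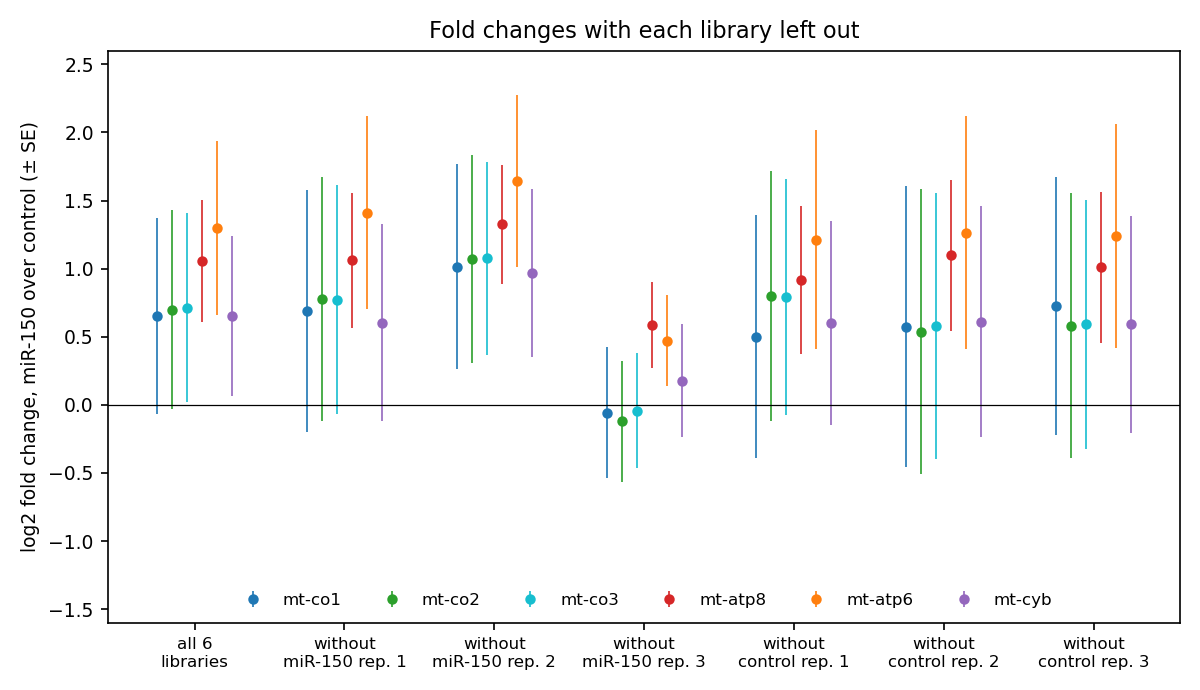
Log2 fold changes (miR-150 over control) of the 6 mRNAs with their standard errors, in the edgeR fit to all 6 libraries and in fits that each left out a library. mt-atp6 reaches 1.64 without miR-150 replicate 2, and mt-co1, mt-co2 and mt-co3 lie at -0.06, -0.12 and -0.04 without miR-150 replicate 3.

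The balance among the 6 mRNAs was compared within each library, where library scaling cancels. mt-atp6 made up 7.47%, 8.96% and 9.04% of the member counts in miR-150 replicates 1, 2 and 3, and 5.23%, 6.41% and 5.77% in control replicates 1, 2 and 3. Every miR-150 library was above every control, with means of 8.49% ± 0.883 in miR-150 libraries and 5.81% ± 0.595 in controls (SD, n = 3 each). This gave the smallest p that the design allows (exact permutation test, two-sided, p = 0.1), which was 0.6 after Benjamini-Hochberg adjustment over the 6 members. The difference, 2.69 percentage points and positive in 3 of 3 libraries against each control, ranged from 2.40 to 3.20 when each library was left out.

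For mt-atp8 the shares were 0.592%, 0.722% and 0.469% in miR-150 replicates 1, 2 and 3, and 0.350%, 0.508% and 0.426% in control replicates 1, 2 and 3. These groups overlapped (exact permutation test, two-sided, p = 0.2, adjusted p = 0.6). The complex V pair together held 8.07%, 9.68% and 9.51% of member counts in miR-150 replicates 1, 2 and 3, against 5.58%, 6.92% and 6.20% in control replicates 1, 2 and 3. Complex V thus took a larger part of the sum in all 3 miR-150 libraries. Nearly all of its counts were those of mt-atp6, so this mainly restates the mt-atp6 shares.

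mt-co1, mt-co2 and mt-co3 had mean shares of 27.2% ± 0.757, 27.0% ± 1.79 and 20.9% ± 0.505 in miR-150 libraries, and of 28.6% ± 5.20, 28.4% ± 3.88 and 21.4% ± 2.38 in controls (SD, n = 3 each). These differences were smaller than the spread between control replicates (exact permutation tests, two-sided, p = 0.7, 0.6 and 1.0, each at least 0.96 after adjustment). Among controls, mt-co1 ran from 22.9% in control replicate 1 to 33.2% in control replicate 3, and mt-co2 was highest in control replicate 1, at 32.9%. mt-cyb held 15.8% ± 2.61 in miR-150 libraries and 15.5% ± 1.05 in controls (SD, n = 3 each), with a two-sided exact permutation p of 0.8 and an adjusted p of 0.96. Its lowest share, 12.8%, was in miR-150 replicate 3.

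Because mt-atp6 lies directly before mt-co3, the ratio of these neighbours was also computed, a measure chosen after their values were seen. It was 0.363, 0.434 and 0.421 in miR-150 replicates 1, 2 and 3, and 0.218, 0.312 and 0.297 in control replicates 1, 2 and 3. The groups did not overlap, and this is given as a description with no test. The ratio of mt-atp8 to mt-atp6 counts was 0.0792, 0.0806 and 0.0518 in miR-150 replicates 1, 2 and 3, and 0.0670, 0.0792 and 0.0738 in control replicates 1, 2 and 3, with overlapping groups. Low counts of mt-atp8 relative to mt-atp6 cannot be read as less RNA, since mt-atp8 is far shorter and counts were not divided by length.

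**Figure D3:**
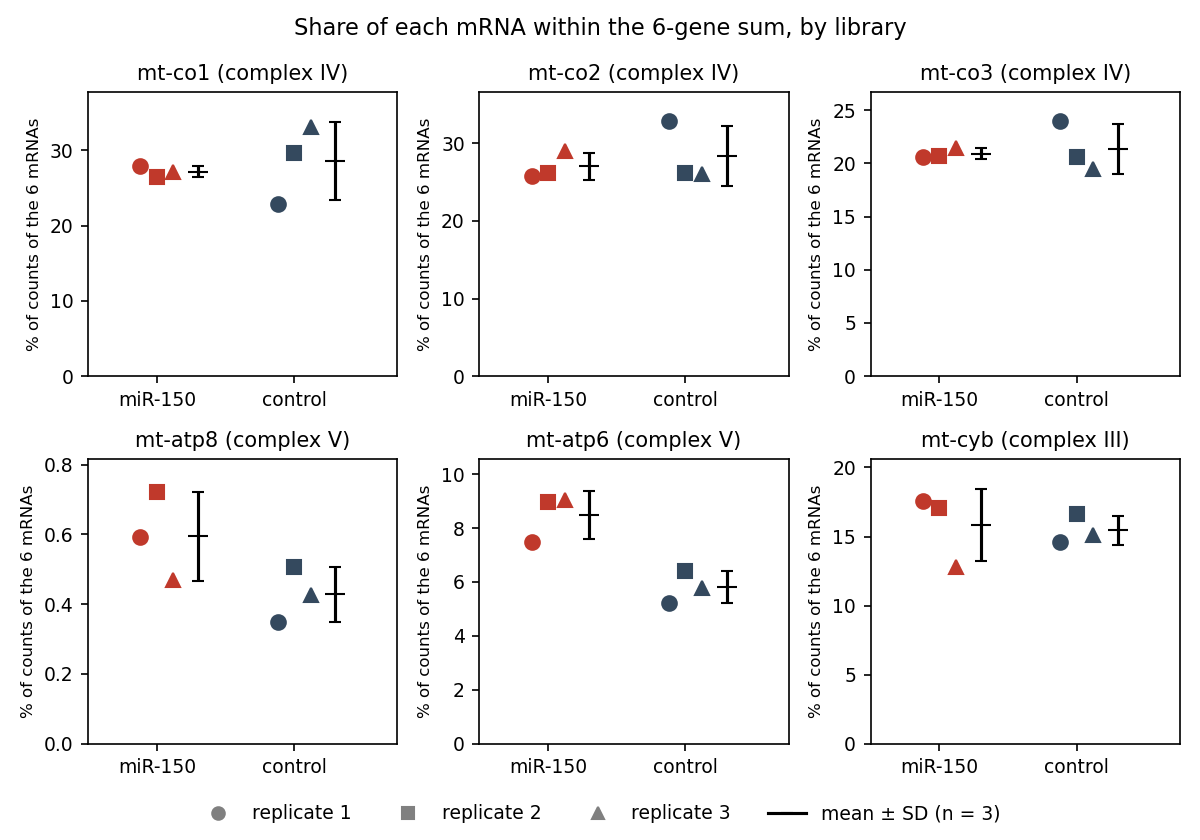
Share of each mRNA in the summed counts of the 6 (percent, linear axis from 0), with a point for each library and the mean and SD (n = 3) beside each group. For mt-atp6 the 3 miR-150 libraries sit between 7.47% and 9.04% and the 3 controls between 5.23% and 6.41%.

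The 7 mitochondrially encoded subunits of complex I, the NADH dehydrogenase that feeds electrons into the chain, are transcribed from the same chromosome. All 7 passed the filter on low counts, 0 of 7 were called by edgeR, and 0 of 7 had an unadjusted p-value below 0.05, against 5.44% of all genes. The complex I log2 fold changes were all positive with a median of 0.96, against 51.8% positive over all genes. The largest was 1.60 ± 0.74 (SE) for mt-nd6, the only protein gene encoded on the other strand. As the strand setting of the counting is not given, whether mt-nd6 counts include reads from the opposite strand was not checked. Without miR-150 replicate 3 the complex I median was 0.48, with all 7 still positive. mt-nd4 and mt-nd2, those with the highest mean CPM, had log2 fold changes of 0.96 ± 0.54 and 1.18 ± 0.57 (SE). The counts of the 6 complex III to V members were 7.83, 7.97 and 8.55 times those of complex I in miR-150 replicates 1, 2 and 3, and 12.5, 8.67 and 10.6 times in control replicates 1, 2 and 3. The ratio was thus lower in every miR-150 library than in any control, although miR-150 replicate 3 (8.55) was below control replicate 2 (8.67) by little. The mean log2 difference was -0.37 (two-sided exact permutation p = 0.1, not adjusted, as small as 3 against 3 permits). The miR-150 libraries lay close together. With each library left out, the log2 difference ranged from -0.51 to -0.24.

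Over all 6 libraries, miR-150 replicate 3 included, the members rose and fell together. Pearson correlations of log2 CPM over 6 libraries between pairs of members ran from 0.79 for mt-co2 with mt-atp8 to 1.00 for mt-co2 with mt-co3, with a median of 0.92 over 15 pairs. Between members and complex I genes the median was 0.92 over 42 pairs, and the lowest was 0.69, for mt-co2 with mt-nd4l. All these points share their library, its depth and its scaling factor. miR-150 replicate 3 was the highest library for all 6 members and all 7 complex I genes, and correlations without it were not computed. Among 2996 other genes with a mean of at least 50 CPM, the 5 whose log2 CPM followed the member sum most closely over the 6 libraries were ENSDARG00000080337, which the symbol table does not name (r = 0.99), mt-nd1 (r = 0.99), paip2b (r = 0.98), mphosph8 (r = 0.98) and srsf5 (r = 0.97). The 7 complex I mRNAs took ranks 2 to 119 in that order, with mt-nd5 at 90 and mt-nd4l at 119. Whether ENSDARG00000080337 itself lies on the mitochondrial chromosome was not checked.

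The nuclear-encoded partners of complexes III, IV and V were described from a list of known subunits. Of 48 genes matched, 47 passed the filter, 0 were called higher and 0 lower by edgeR. Of the 47, 3 had an unadjusted p-value below 0.05, against 5.44% of all genes. The nuclear median log2 fold change was 0.76, with 46 positive and 1 negative, against 51.8% positive over all genes. As with the members, miR-150 replicate 3 was the highest library, for 43 of the 47 nuclear genes, 6 of the 6 members and 28.0% of all genes tested. Without it the nuclear median was 0.06, with 27 positive and 20 negative, where 53.1% of all genes were positive.

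Within complex III (9 genes tested), uqcrc1, a core subunit, had 209 ± 99.1 CPM in miR-150 libraries and 102 ± 13.5 CPM in controls (SD, n = 3 each), the largest log2 fold change of its list at 1.03. uqcrfs1, the iron-sulphur protein that passes electrons to cytochrome c1, had 160.2 ± 61.4 CPM in miR-150 libraries and 108 ± 21.2 CPM in controls (SD, n = 3 each). Within complex IV (21 genes tested), the copy of cox5b with the highest CPM had 284 ± 205 CPM in miR-150 libraries and 167 ± 35.8 CPM in controls, and cox7c, a small accessory subunit, had 252 ± 210.4 and 145 ± 27.7 CPM (SD, n = 3 each). By library, cox7c had 124, 136 and 494 CPM in miR-150 replicates 1, 2 and 3, against 177, 133 and 126 CPM in control replicates 1, 2 and 3. Another gene with the symbol cox5b was the only one of the 47 below 0, at a log2 fold change of -0.15 and about 2 CPM in either group. Without miR-150 replicate 3 the complex III median fell from 0.63 to 0.07, with 6 positive and 3 negative. The complex IV median then fell from 0.76 to -0.02, with 8 positive and 13 negative.

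The nuclear gene with the largest log2 fold change was ndufa4b, whose product is related to a subunit now placed in complex IV. It had 15.8, 29.0 and 25.3 CPM in miR-150 replicates 1, 2 and 3, against 2.37, 2.82 and 0.834 CPM in control replicates 1, 2 and 3. The log2 fold change of ndufa4b was 3.54 ± 0.76 (SE), with an edgeR adjusted p-value of 0.758. DESeq2 called it, with an adjusted p-value of 0.000265. It was the only 1 of the 47 nuclear complex III to V genes so called, against 1.63% of all genes. Its 3 miR-150 libraries all lay well above its 3 controls. ndufa4, on the same list with 12424 counts over all libraries against 1301 for ndufa4b, was not called.

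Within complex V, all 17 genes tested had positive log2 fold changes, with a median of 0.81, against 13 positive and 4 negative with a median of 0.14 without miR-150 replicate 3. atp5f1b, the catalytic beta subunit, had 1079.7 ± 582 CPM in miR-150 libraries and 585 ± 205 CPM in controls (SD, n = 3 each). atp5mc3b, a gene for the membrane rotor ring, had 375 ± 292 CPM in miR-150 libraries and 191 ± 22.6 CPM in controls, and atp5mea had the largest log2 fold change of the list, 1.13 ± 0.79 (SE). In complex II, which has no mitochondrially encoded subunit, sdha had 168 ± 18.7 CPM in miR-150 libraries and 105 ± 17.4 CPM in controls, and sdhb had 165 ± 44.6 and 113 ± 14.1 CPM (SD, n = 3 each). sdhc, a membrane anchor of complex II, had the largest log2 fold change of its 4 tested genes, 0.95 ± 0.44 (SE). Of the 4, 0 were called by edgeR and 0 had an unadjusted p-value below 0.05, against 5.44% of all genes. The complex II median was 0.81, and 0.57 without miR-150 replicate 3, with all 4 positive in both.

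**Figure D4:**
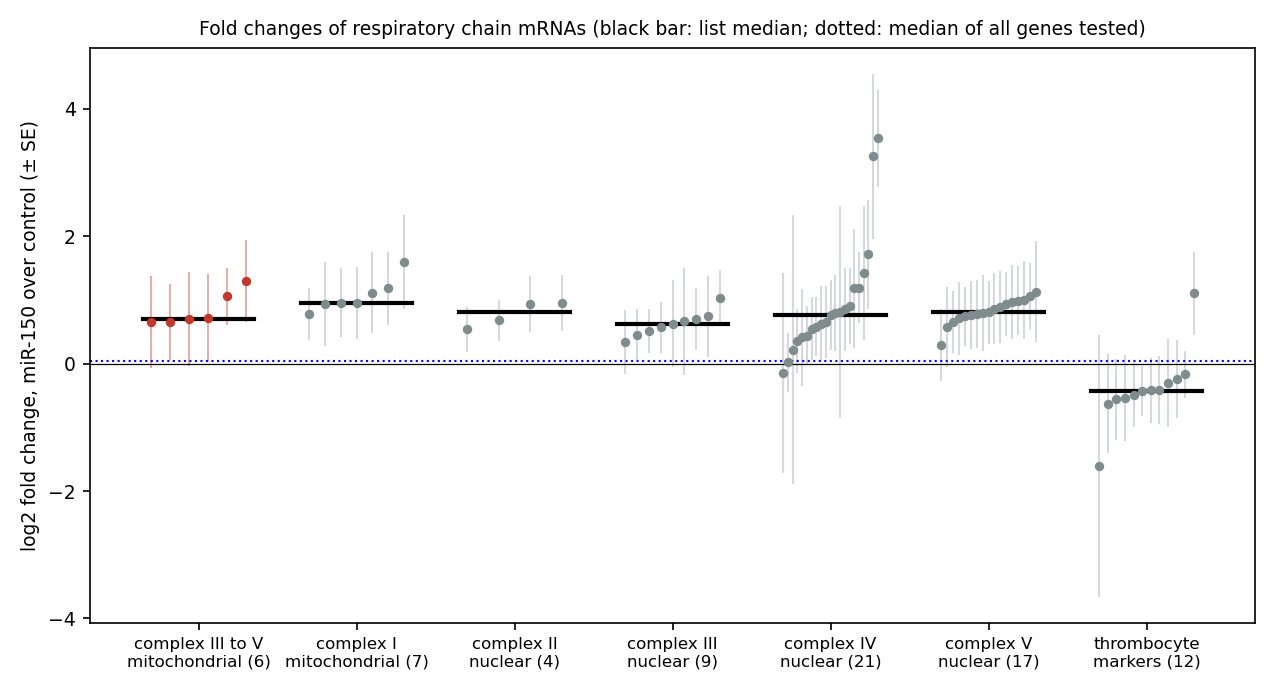
Log2 fold changes (miR-150 over control) with standard errors from the edgeR fit, for the 6 complex III to V mRNAs of the mitochondrial genome and for complex I, nuclear respiratory chain and thrombocyte marker lists, with the number of genes tested in brackets, list medians as black bars and the median of all genes as a dotted line. The 6 members have a median of 0.71 and the 12 thrombocyte markers a median of -0.42, which without miR-150 replicate 3 were 0.07 and -0.15.

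The members were next set against their nuclear partners within each library. The member counts were 5.31, 2.01 and 3.74 times those of the nuclear complex III to V list in miR-150 replicates 1, 2 and 3, and 2.88, 3.74 and 4.77 times in control replicates 1, 2 and 3. The groups overlapped. The log2 ratio was 1.77 ± 0.709 in miR-150 libraries and 1.89 ± 0.365 in controls (SD, n = 3 each), with a two-sided exact permutation p of 0.8.

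Genes for making and keeping mitochondrial RNA, and for assembling the complexes, likewise had 0 calls in edgeR. Of 17 genes tested for mitochondrial RNA synthesis and stability, 15 had positive log2 fold changes, with a median of 0.88, against 51.8% positive over all genes. An unadjusted p-value below 0.05 was reached by 3 of the 17, against 5.44% of all genes. Without miR-150 replicate 3, 10 of the 17 were positive and 7 negative, with a median of 0.47 and 0 below that p-value, where 53.1% of all genes were positive. elac2, the enzyme that cuts the 3′ ends of transfer RNAs from their precursors, had 3.63, 45.5 and 59.8 CPM in miR-150 replicates 1, 2 and 3, against 2.84, 8.26 and 3.14 CPM in control replicates 1, 2 and 3. Its log2 fold change was 2.94 ± 1.04 (SE; edgeR adjusted p = 0.819), and miR-150 replicate 1 lay within the controls. hsd17b10, a subunit of mitochondrial RNase P, which cuts the 5′ ends, had 24.5, 54.8 and 98.1 CPM in miR-150 libraries, against 14.5, 19.9 and 24.6 CPM in controls. lrpprc, which in mammals stabilises mitochondrial mRNAs, had 51.5 ± 33.1 CPM in miR-150 libraries and 24.5 ± 4.21 CPM in controls (SD, n = 3 each). tefm, an elongation factor of the mitochondrial RNA polymerase, had the lowest log2 fold change, -1.54 ± 1.704 (SE), at 1.505 ± 1.63 CPM in miR-150 libraries and 4.39 ± 2.44 CPM in controls (SD, n = 3 each).

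Of 16 genes tested for assembly of complexes III to V, 15 had positive log2 fold changes, with a median of 1.06, against 51.8% positive over all genes. Of the 16, 1 had an unadjusted p-value below 0.05, against 5.44% of all genes. Without miR-150 replicate 3 the median was 0.52, with 14 positive, 2 negative and 0 below that p-value. The gene below it with all libraries was cox17, a copper chaperone for complex IV, with 33.2, 59.6 and 155 CPM in miR-150 replicates 1, 2 and 3, against 25.9, 27.1 and 32.3 CPM in control replicates 1, 2 and 3 (edgeR adjusted p = 0.870). cox10, which makes the haem of complex IV, went the other way, with 33.1, 28.0 and 1.04 CPM in miR-150 replicates 1, 2 and 3, against 46.6, 37.6 and 27.3 CPM in controls, and a log2 fold change of -0.84 ± 1.00 (SE). bcs1l, which inserts the iron-sulphur protein into complex III, had the largest log2 fold change of the list, 2.73 ± 1.69 (SE), at 8.08 ± 5.14 CPM in miR-150 libraries and 1.21 ± 1.06 CPM in controls (SD, n = 3 each). Among 8 genes of general mitochondrial content, 0 were called and 1 had an unadjusted p-value below 0.05, against 5.44% of all genes. The median log2 fold change of the 8 was 0.45. Without miR-150 replicate 3 it was 0.12, with 6 positive and 2 negative. hspa9, the matrix chaperone, had 329 ± 115 CPM in miR-150 libraries and 314 ± 124 CPM in controls, and vdac1, the outer membrane channel, had 276 ± 101 and 265 ± 71.8 CPM (SD, n = 3 each). tomm20a, a receptor for protein import, had the largest log2 fold change of that list, 1.63 ± 0.68 (SE).

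Marker lists of thrombocytes and of other cells were summed in each library. The thrombocyte marker list took 1.57%, 1.35% and 0.390% of counts in miR-150 replicates 1, 2 and 3, against 1.67%, 1.88% and 1.48% in control replicates 1, 2 and 3, and 11 of its 12 genes tested had negative log2 fold changes, 0 of them called by edgeR. The median of these markers was -0.42, and -0.15 without miR-150 replicate 3, where 13 genes were tested and 9 were negative. p2ry12, the gene for P2Y12, had 0 counts in all 6 libraries, which allows up to 3 counts in each. The heart muscle list, with 3 of 8 matched genes tested, summed to 0.000885% to 0.0108% of counts in miR-150 libraries, highest in replicate 3, and to 0.000701% to 0.00140% in controls. The 3 myh6 genes of that list, for an atrial myosin, had 4, 0 and 1 counts summed over all 6 libraries. Another of its genes, myl7, a myosin light chain of the heart, had 9.03, 0 and 40.4 CPM in miR-150 replicates 1, 2 and 3, against 2.05, 0 and 0.343 CPM in control replicates 1, 2 and 3. The skeletal muscle list, with all 11 matched genes tested, summed to 0.129% to 0.226% in miR-150 libraries and to 0.0975% to 0.273% in controls. It was highest in control replicate 3, not in miR-150 replicate 3. The ionocyte list, with 5 of 8 matched genes tested, summed to 0.00725% to 0.0216% in miR-150 libraries, lowest in replicate 3, and to 0.00742% to 0.00912% in controls. The erythroid list, with 7 of 8 matched genes tested, summed to 0.0302% to 0.0465% in miR-150 libraries, highest in replicate 3, and to 0.0316% to 0.0418% in controls. gata1a dominated this sum, with 26021 counts over all libraries against 3986 for hbae3, the next. Of the 7 genes, 5 were highest and 1 lowest in miR-150 replicate 3, where 28.0% of all genes were highest. Their median log2 deviation there was 2.21. edgeR called 0 of the 7. DESeq2 called 1, hbae3, at a log2 fold change of 5.10 (DESeq2 adjusted p = 0.00195), against 1.63% of all genes. hbae3 also belongs to the crystallin-rich set, which was picked for high values in miR-150 replicates 2 and 3. Its call is therefore not separate from that set. The epidermis list, with 6 of 7 matched genes tested, took 0.268% to 1.22% in miR-150 libraries and 0.0709% to 2.03% in controls, and the liver list, also with 6 of 7, took 0.00271% to 0.00785% in miR-150 libraries and 0.00226% to 0.293% in controls. Both sums were highest in control replicate 3. That library was the highest for 6 of the 6 liver genes tested and 5 of the 6 epidermis genes tested. The neural list, with all 7 matched genes tested, took 0.00590% to 0.0351% in miR-150 libraries and 0.0194% to 0.0395% in controls, and the myeloid list, with 3 of 5, took 0.00847% to 0.0252% in miR-150 libraries and 0.0253% to 0.0274% in controls. In miR-150 replicate 2 the 6 mRNAs took 0.876% of counts, the smallest share of any library. The crystallin-rich set took 18.3% there, and 27.0% in miR-150 replicate 3, where the 6 mRNAs took 3.48%. The part of these cells, and of the crystallin-rich set, in the levels of the 6 mRNAs was not tested.

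**Figure D5:**
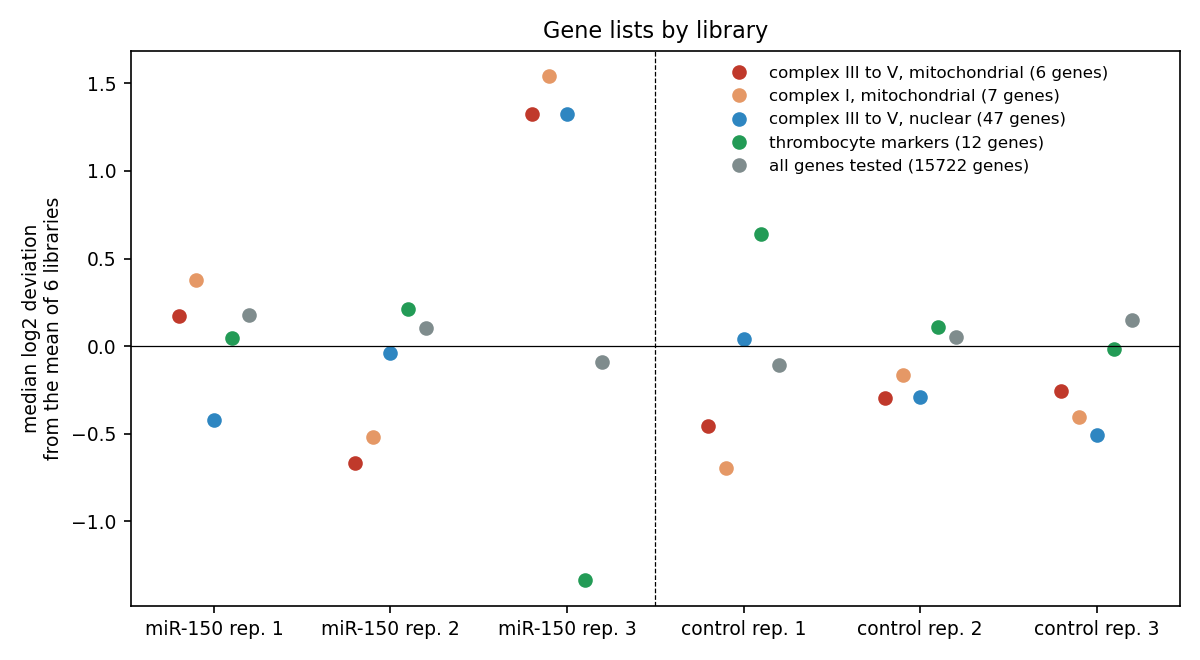
Median log2 deviation of each gene list from its mean over the 6 libraries, by library, with miR-150 libraries left of the dashed line. In miR-150 replicate 3 the 6 members are at 1.33, nuclear complexes III to V at 1.32 and thrombocyte markers at -1.34, while in miR-150 replicate 2 the members are at -0.67 and the nuclear list at -0.04.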

How the data were processed

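The authors deposited raw read counts per Ensembl gene, as whole numbers with 1 column per library, and all 6 columns were used. The submitters' processing notes name STAR 2.7.10b, HTSeq 0.11.3, edgeR 1.34.1 and the build GRCz11, without roles or settings. The strand setting, the annotation release and the handling of duplicates are not given in the sources used here. Per the labels, RNA from sorted cells was amplified with a SMARTer ultra-low input kit, and libraries were made with Nextera XT.

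Symbols came from a reference table that paired 29201 of 32520 identifiers, and are printed in lower case. Gene lists were matched by symbol, or without the paralog letter a or b, for 164 of 182 symbols. No gene lengths of the build were used, so levels are not compared between genes. Sequences are not shown.

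The genotypes were compared with edgeR 4.0.16 under R 4.3.3 (filterByExpr, TMM, glmQLFit and glmQLFTest, genotype as the only term), with Benjamini-Hochberg adjustment over 15722 genes and a threshold of 0.05. The standard error is the absolute log2 fold change over the square root of F. Single values per library were compared by exact permutation over the 20 assignments. These p-values give how extreme the observed group difference was among those assignments of these libraries. List deviations used log2(CPM + 0.5), and correlations log2 CPM with a prior count of 2. The edgeR script was tested on simulated data with a smaller spread between libraries than here, where the common biological coefficient of variation was 1.03. That test does not measure the power to find changes in these data. Alternatives used DESeq2 1.42.0 and limma 3.58.1, other scalings and filters, each replicate left out and the replicate number as a block. Named genes were, per list, the 2 of highest mean CPM and those with the largest positive and negative log2 fold change. The members and lists were chosen with earlier results of these data known.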

Additional observations from a re-analysis of the deposited data

How the results depend on the processing

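No member was called under any alternative run. The log2 fold changes of mt-atp8, mt-atp6 and mt-cyb stayed positive in all of them. limma voom with sample quality weights gave mt-co1 a log2 fold change of -0.053, and the cause was not tested. With each replicate left out, mt-co1 ranged from -0.058 to 1.01, mt-co2 from -0.12 to 1.07, mt-co3 from -0.042 to 1.08, mt-atp8 from 0.59 to 1.33, mt-atp6 from 0.47 to 1.64 and mt-cyb from 0.18 to 0.97. The difference in summed share ranged from -0.0731 without miR-150 replicate 3 to 1.23 percentage points without miR-150 replicate 2, and was 1.23 with the 50 most abundant genes taken out of the totals and 1.08 with the crystallin-rich set taken out. Shares in the member sum ranged from -4.23 to 0.881 for mt-co1, -2.52 to 0.869 for mt-co2, -1.39 to 0.888 for mt-co3, 0.102 (without miR-150 replicate 2) to 0.229 for mt-atp8 and -0.515 to 1.86 percentage points for mt-cyb. The sign of these differences changed for mt-co1 without control replicate 3 (0.881), for mt-co2 and mt-co3 without control replicate 1 (0.869 and 0.888), and for mt-cyb without miR-150 replicate 1, miR-150 replicate 2 or control replicate 1 (-0.515, -0.247 and -0.0480).

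Members without overlap numbered 2, against 0 under DESeq2 size factors, upper-quartile scaling, library totals and DESeq2's own scaled counts, and 2 to 6 with a replicate left out. The DESeq2 Wald test called 257 of all genes and 1 nuclear complex III to V gene, where edgeR called 0 and 0. The nuclear median log2 fold change ranged from 0.063 to 0.97 with a replicate left out. Same-numbered libraries deviated with correlations of -0.19, -0.10 and -0.038 over genes, so the numbers were not taken as pairs. With the replicate block the log2 fold changes ran from 0.40 for mt-co2 to 1.03 for mt-atp6, and edgeR called 0 genes. The summed share difference of 0.588 percentage points is the same with and without the block by construction. Removing the crystallin-rich set, a setting chosen after seeing the data, left the member median at 0.68. That removal dropped only the rows of those genes, so it cannot show whether the cells that carried them also added to the member counts. The comparison per kilobase of coding length was not run.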
